A study of Mus musculus with 56 samples.

Results

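The core of the Hippo pathway was followed through the day in the anterior hypothalamus of mice fed by day or by night. The 10 genes were named by their place in the pathway and not by a daily rhythm: Stk4, Stk3, Sav1, Mob1a, Mob1b, Lats1, Nf2, Yap1, Wwtr1 and Tead1. All 10 were found among the 17564 genes of the table by their NCBI Gene ID, and all 10 passed the filter on low values. Yap1 also belongs to the Hippo genes that the study picked for their rhythm, so it was not chosen free of rhythm. The set as a whole was chosen with earlier results of these data known.

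The samples were anterior hypothalami of female C57BL/6J mice, 9 weeks of age, kept in 12 h of light and 12 h of dark. For 7 days food was given either from lights-on (zeitgeber time 0, ZT0) to lights-off (ZT12), which is day time-restricted feeding (DRF), or from ZT12 to ZT0, which is night time-restricted feeding (NRF). In each regimen 4 mice were sampled every 4 h from ZT0 to ZT24, 7 time points in all and 56 mice, and the ZT24 mice were other mice than the ZT0 mice. The labels name no transgene and no drug, and no group with free access to food was analysed here.

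Hippo signalling is a kinase cascade that restrains growth. STK4 and STK3 (also called MST1 and MST2), held by the scaffold SAV1, phosphorylate the LATS kinases, for which MOB1A and MOB1B act as co-activators, and NF2 (merlin) brings the cascade to the cell membrane. Active LATS phosphorylates the co-activators YAP1 and TAZ, the product of Wwtr1, and keeps them out of the nucleus. When the cascade is quiet they enter the nucleus and bind TEAD1 and its relatives on DNA. In the brain, YAP1 and TAZ are known mainly from astrocytes, ependymal cells and vessels, and most of the control in this pathway acts on the proteins, which these data do not measure.

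In NRF mice, 6 of the 10 transcripts were rhythmic, against 30.7% of all transcripts tested. They were Stk4, Mob1a, Nf2, Yap1, Wwtr1 and Tead1, with fitted peaks between ZT19.4 and ZT22.2. In DRF mice 0 of the 10 were rhythmic, against 1.02% of all transcripts. The changes were small. The fitted peak was 1.07 to 1.37 times the trough in these 6 genes in NRF. The rhythm itself differed between regimens for 4 of the 10 (Stk4, Mob1a, Yap1 and Wwtr1), against 11% of all transcripts. Each had a lower fitted amplitude in DRF, although for Mob1a that direction turned without replicate 2. Each of the 4 calls was lost without some replicate number: 4 (Stk4), 1 or 3 (Mob1a), 1 or 4 (Yap1) and any (Wwtr1). The mean level over the day differed between regimens for 0 of the 10, against 10.5% of all transcripts.

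Levels are given as counts per 1000000 normalized reads (CPM), recovered from the deposited values, and differences as log2(CPM + 1). The normalized library size was 29591266 to 34493339 reads per mouse, which gave the scarcest of the genes, Mob1b, 89 to 331 reads per mouse and the most abundant, Nf2, 2479 to 3511. In whole tissue, fewer cells that make a transcript and less of it per cell cannot be told apart. Markers of the anterior hypothalamus were present in all mice (8 genes, 366 to 905 CPM in sum), among them Avp, Oxt and Six6, and so were markers of the neighbouring arcuate and lateral hypothalamus (4 genes, 101 to 1085 CPM). Markers of the choroid plexus were low (3 genes, 8.32 to 23.3 CPM). The choroid plexus genes Ttr and Folr1 averaged 3.04 and 0.532 CPM.

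Mice 3 and 4 of DRF ZT16 stood apart from the rest. Across 13841 genes, their deviation from the mean of all mice correlated with the GC content of the gene at r = 0.67 and 0.78, against -0.48 to 0.43 in the other 54 mice. In a fit that weighs each mouse, they had the lowest weights of all (0.124 and 0.0698). The 10 genes summed to 309 and 315 CPM in these mice, against 370 and 372 CPM in the other mice of their group. Results that rest on DRF ZT16 are therefore given with and without these 2 mice. In NRF the GC correlation also followed time, at 0.056 to 0.318 (ZT8), -0.41 to -0.142 (ZT20) and -0.478 to -0.268 (ZT24). The correlation with gene length was -0.342 to -0.164 at ZT8 and 0.022 to 0.197 at ZT20. In DRF the GC correlation overlapped, at -0.36 to 0.343 (ZT8) and -0.254 to 0.064 (ZT20). The test for a rhythm in each regimen was not run with these trends removed.

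The upstream members lie at chr2:164074113-164155524 (Stk4), chr15:34875499-35155882 (Stk3), chr12:69965009-69988141 (Sav1), chr6:83326034-83342812 (Mob1a), chr5:88720871-88758455 (Mob1b), chr10:7681200-7716461 (Lats1) and chr11:4757639-4849544 (Nf2). The nuclear members lie at chr9:7931999-8004638 (Yap1), chr3:57455644-57575910 (Wwtr1) and chr7:112679356-112906784 (Tead1), all in GRCm38. Each value covers all exons of its gene, coding and untranslated. Stk3 and Stk4, Mob1a and Mob1b, and Yap1 and Wwtr1 are related in sequence. Reads that genes share can be split in counting, and the counts of 1870 genes of the table held 2 decimals. Such parts of reads were not seen in the members, whose counts were whole in 100% of the mice. Whether whole reads went to the wrong relative was not tested.

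RefSeq promoters (GRCm38.p6, 250 bases before to 50 bases after the transcript start) were held for 8 of the 10 genes, all but Stk3 and Tead1. Those of the 4 genes whose rhythm differed between regimens are shown. Each is printed in the direction of transcription, with matches on either strand in capitals to letters bound by clock factors (CACGTG, the E-box of CLOCK and BMAL1; TTANGTAA, the D-box; AGGTCA, read by REV-ERB and ROR receptors) or by TEAD factors (CATTCC, or GGAATG when read on the other strand). They are chr2:164073888-164074187 on the plus strand (Stk4), chr6:83325789-83326088 on the plus strand (Mob1a), chr9:8004547-8004846 on the minus strand (Yap1) and chr3:57575861-57576160 on the minus strand (Wwtr1, the upstream of 2 overlapping windows).
Stk4: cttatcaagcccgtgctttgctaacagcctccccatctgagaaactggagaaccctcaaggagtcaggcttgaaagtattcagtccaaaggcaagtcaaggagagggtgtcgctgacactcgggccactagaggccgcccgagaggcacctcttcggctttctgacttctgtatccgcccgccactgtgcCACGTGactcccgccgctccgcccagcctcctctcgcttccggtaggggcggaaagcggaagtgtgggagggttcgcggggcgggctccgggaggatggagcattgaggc
Mob1a: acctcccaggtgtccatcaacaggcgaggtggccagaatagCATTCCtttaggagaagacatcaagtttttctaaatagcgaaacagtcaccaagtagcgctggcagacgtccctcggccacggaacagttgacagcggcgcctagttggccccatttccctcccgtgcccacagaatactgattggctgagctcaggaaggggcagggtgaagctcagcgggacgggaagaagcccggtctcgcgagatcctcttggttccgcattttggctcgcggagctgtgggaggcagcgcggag
Yap1: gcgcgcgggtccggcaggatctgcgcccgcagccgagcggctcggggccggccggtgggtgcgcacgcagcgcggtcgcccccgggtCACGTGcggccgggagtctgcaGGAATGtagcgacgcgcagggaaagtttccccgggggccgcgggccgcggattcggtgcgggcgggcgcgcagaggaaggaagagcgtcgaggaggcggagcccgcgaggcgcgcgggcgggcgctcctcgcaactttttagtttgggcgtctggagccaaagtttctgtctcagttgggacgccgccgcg
Wwtr1: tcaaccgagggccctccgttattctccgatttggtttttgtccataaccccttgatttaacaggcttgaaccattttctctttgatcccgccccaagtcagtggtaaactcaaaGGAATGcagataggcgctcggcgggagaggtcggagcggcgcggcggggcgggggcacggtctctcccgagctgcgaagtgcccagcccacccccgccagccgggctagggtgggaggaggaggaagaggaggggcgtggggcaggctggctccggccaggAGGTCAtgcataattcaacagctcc

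With the transcript start as the first base, the E-box began at position -60 in Stk4 and at -163 in Yap1. Mob1b, which was not rhythmic by this test, also held an E-box at -125, overlapping an AGGTCA at -129. TEAD letters were found in Mob1a at -209, in Yap1 at -141, in Wwtr1 at -136 and in Sav1 at -106. Wwtr1 held AGGTCA at position 26, and the second Nf2 promoter held a D-box (TTACGTAA) at -46. The Lats1 promoter held none of these letters. Of all 32851 mouse promoters of this length, 7.15% held the E-box, 2.32% the D-box, 16.3% AGGTCA and 14.7% the TEAD letters. A match is a string of letters in this window and does not show that a factor binds there.

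**Figure D1:**
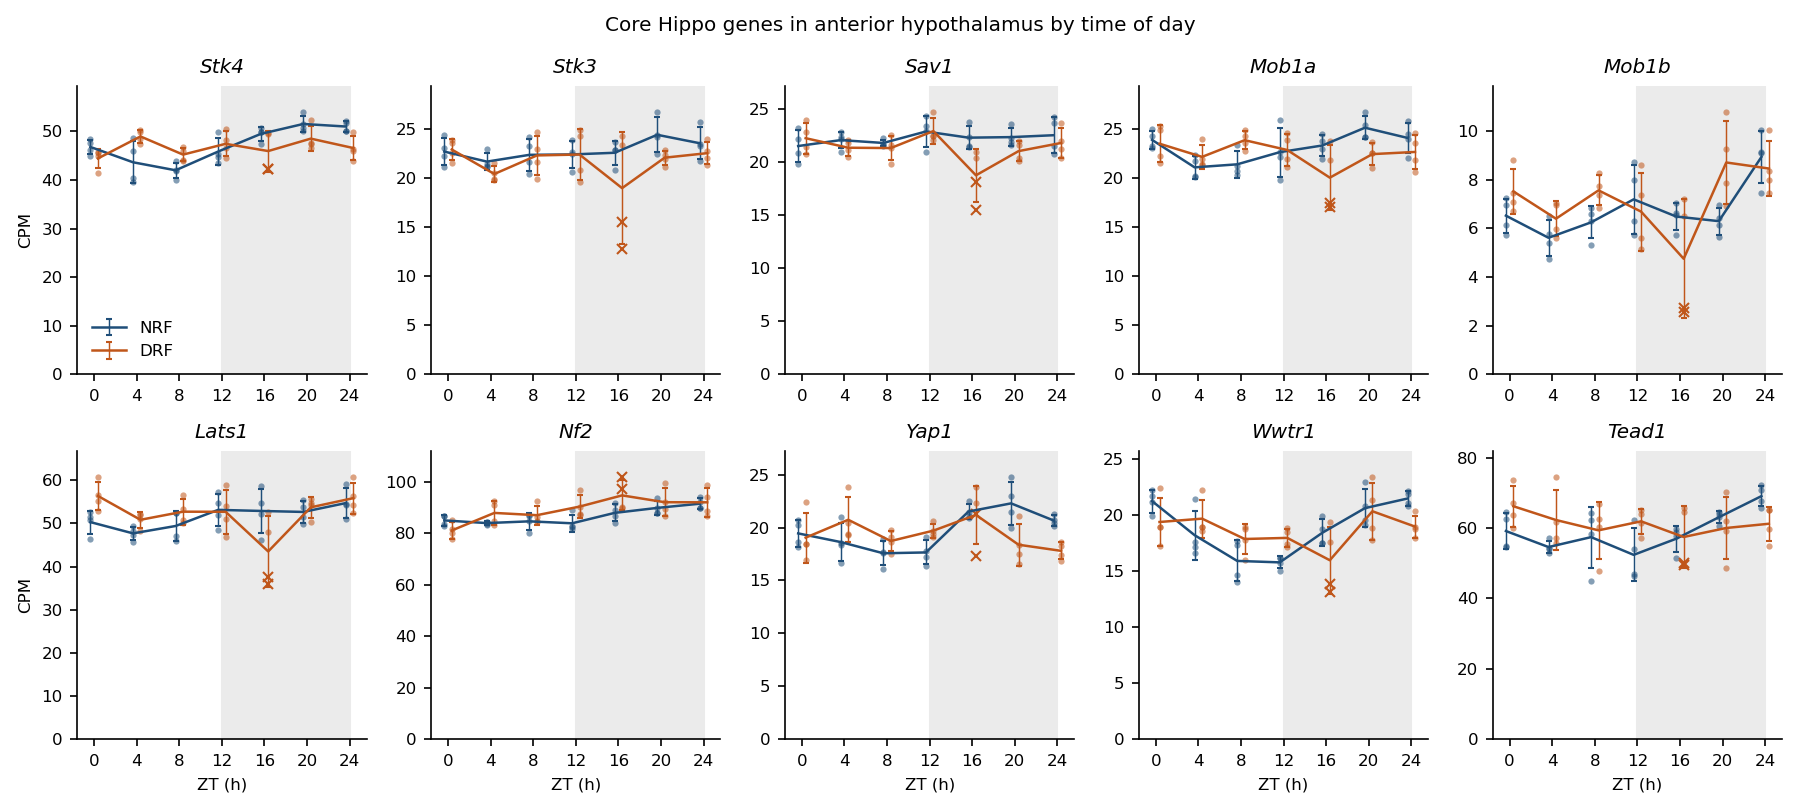
CPM of each of the 10 genes (vertical axis, from 0) against zeitgeber time in hours (ZT), with a point for each mouse and lines through the mean ± SD of 4 mice, for NRF (blue) and DRF (orange). Shading marks the dark period and crosses mark mice 3 and 4 of DRF ZT16, which are the 2 lowest of their group for 9 genes, all but Nf2, among them Mob1b at 2.72 and 2.58 CPM.

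Whether the genes cycled in each regimen was tested on the deposited values by combining JTK_CYCLE, a rank test against cosine shapes, with the Lomb-Scargle periodogram, and adjusting over all transcripts by the Benjamini-Hochberg method. In NRF, 30.7% of all transcripts tested were called, so 6 of 10 stands beside a high background. In DRF, 1.02% were called, and 5.07% had an unadjusted p-value under 0.05, against 0 of the members in both counts. JTK_CYCLE alone (0.671% of all transcripts) and the limma cosine (4.04%) also called 0 members in DRF, while 4 members (Mob1b, Lats1, Nf2 and Wwtr1) had an unadjusted p-value under 0.05 in the limma cosine, against 22.8% of all transcripts. Among all transcripts called in NRF, the fitted peak lay between ZT18 and ZT24 in 50.8%, and it did so in 6 of the 6 members called.

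Among the kinases and their helpers, Stk4 had the smallest adjusted p-value in NRF (2.57e-06). At ZT8 the 4 NRF mice had 41.9, 40.1, 44.0 and 42.0 CPM, and at ZT20 they had 53.96, 51.43, 50.75 and 50.04 CPM. Every mouse at ZT20 was above every mouse at ZT8. In DRF the values were 44.2, 45.9, 44.0 and 46.9 CPM at ZT8 and 47.7, 52.4, 46.6 and 47.4 CPM at ZT20, with a small overlap. The cosine fitted by limma had an amplitude of 0.15 ± 0.02 (SE, log2) in NRF with a peak at ZT19.4, and 0.00 ± 0.02 in DRF (0.03 ± 0.02 without the 2 mice of DRF ZT16). The rhythms differed with an adjusted p-value of 0.00846 (limma), which rose to 0.077 without replicate 4.

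Mob1a, a co-activator of LATS, was rhythmic in NRF (adjusted p-value 0.00189). The NRF mice had 20.7, 20.3, 23.4 and 21.2 CPM at ZT8 and 24.2, 24.2, 26.7 and 25.4 CPM at ZT20, without overlap. The DRF mice had 24.3, 23.5, 24.9 and 22.7 CPM at ZT8 and 21.0, 22.6, 22.5 and 23.7 CPM at ZT20, and the groups overlapped. The amplitude was 0.11 ± 0.03 in NRF and 0.07 ± 0.03 in DRF, with peaks at ZT19.6 and ZT4.85. The 2 rhythms differed (adjusted p-value 0.0191, limma). Without the 2 mice of DRF ZT16 the amplitude in DRF was 0.02 ± 0.02 and the adjusted p-value 0.0314, and without replicate 1 or 3 it was 0.113 or 0.144. Without replicate 2 the difference was still called (0.0293), but the amplitude was then no lower in DRF. The rhythm in NRF was not called without replicate 2 (0.113). Its relative Mob1b was not called in either regimen (adjusted p-value 1 in both), at a level of 6.76 ± 1.26 CPM (SD, n = 28) in NRF and 7.16 ± 1.80 CPM (SD, n = 28) in DRF.

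Nf2 was called in NRF (adjusted p-value 7.09e-04), with the smallest amplitude of the 6 (0.05 ± 0.02 log2, peak at ZT20.2). The lowest, median and highest of the 28 NRF mice were 80.1, 86.8 and 94.0 CPM. With the limma cosine in place of the combined test, Nf2 was not called (adjusted p-value 0.121), and 5 members were, against 27.9% of all transcripts. In DRF its fitted amplitude was 0.06 ± 0.02 with all mice, no smaller than in NRF, and 0.04 ± 0.02 without the 2 mice of DRF ZT16. The call in NRF was lost without replicate 3 (0.202). The difference in rhythm did not pass the test with all mice (adjusted p-value 0.223, limma) or without these 2 (0.39).

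Lats1, Stk3 and Sav1 did not pass the combined test in NRF, with adjusted p-values of 0.0748, 0.244 and 1. Lats1, the kinase that phosphorylates YAP1, passed with JTK_CYCLE alone (adjusted p-value 0.0475, against 31.8% of all transcripts). Sav1 was the flattest of the members in NRF, with an amplitude of 0.02 ± 0.03 and values of 19.8, 22.2 and 24.3 CPM for the lowest, median and highest mouse. Stk3, the partner of Stk4, had an amplitude of 0.06 ± 0.04 in NRF and 0.06 ± 0.04 in DRF.

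All 3 nuclear members were rhythmic in NRF. Wwtr1, which encodes TAZ, had the largest amplitude of the 10 genes (0.23 ± 0.03 log2, peak at ZT22.1, adjusted p-value 1.28e-07 in the combined test). Its NRF values were 17.3, 14.1, 14.7 and 17.7 CPM at ZT8 and 19.2, 20.8, 19.6 and 23.0 CPM at ZT20, without overlap. In DRF they were 18.8, 19.0, 17.8 and 16.02 CPM at ZT8 and 17.8, 23.4, 18.8 and 21.4 CPM at ZT20, and the groups overlapped. The amplitude in DRF was 0.10 ± 0.03 (0.07 ± 0.03 without the 2 mice of DRF ZT16), and the rhythms differed at an adjusted p-value of 0.0384 (limma). Without ZT24 this difference was not called (0.114), nor was it when any 1 of the 4 replicate numbers was left out (0.0603 to 0.155).

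Yap1 had an adjusted p-value of 3.44e-05 in NRF, with an amplitude of 0.17 ± 0.03 and a peak at ZT19.6. The NRF mice had 17.7, 16.1, 17.6 and 18.9 CPM at ZT8 and 19.99, 21.43, 22.97 and 24.78 CPM at ZT20, without overlap. The DRF mice had 19.8, 19.1, 17.5 and 18.6 CPM at ZT8 and 17.5, 21.1, 16.6 and 18.4 CPM at ZT20, and the groups overlapped. In DRF the amplitude was 0.05 ± 0.03, against which the NRF rhythm differed at an adjusted p-value of 0.0112 (limma). This difference was not called without ZT24 (0.0577), replicate 1 (0.0564) or replicate 4 (0.0759).

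Tead1, the DNA-binding partner, was called in NRF with an adjusted p-value of 0.0126, an amplitude of 0.13 ± 0.04 and a peak at ZT22.2. Its NRF mice had 46.3, 54.1, 46.8 and 62.3 CPM at ZT12 and 65.6, 70.8, 72.1 and 67.7 CPM at ZT24. All ZT24 mice were above all ZT12 mice, but the ZT24 mice were also above all ZT0 mice, which had 54.8, 54.6, 62.6 and 64.5 CPM at the same clock time. Tead1 was not called without ZT24 (adjusted p-value 1) or without replicate 1, 2 or 3 (0.238, 0.314 and 0.224). The difference in rhythm did not pass the test (adjusted p-value 0.315, limma).

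**Figure D2:**
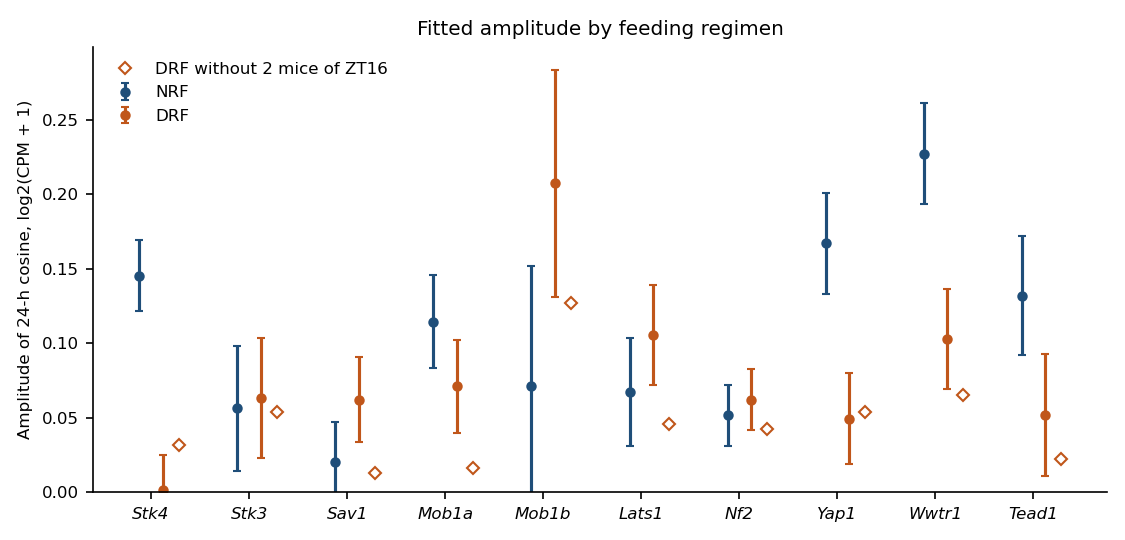
Amplitude of the fitted 24-h cosine on the log2(CPM + 1) scale for each gene in NRF (blue) and DRF (orange), with bars of ± SE cut off at 0, and in DRF without mice 3 and 4 of ZT16 (open diamonds). Wwtr1, Yap1 and Stk4 have the largest amplitudes in NRF (0.23, 0.17 and 0.15), and the DRF amplitude of Mob1b falls from 0.21 to 0.13 without these mice.

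Across all transcripts the difference in rhythm was called in 11% (9.14% with a lower amplitude in DRF), against 4 of 10 members, all 4 with a lower amplitude in DRF. The median amplitude of the members was 0.093 in NRF and 0.063 in DRF, and that of all transcripts was 0.073 and 0.056. Over all 10 members the fitted amplitude was lower in DRF for 5 and higher for the other 5, while it was lower for 61.9% of all transcripts. Mob1b, Lats1 and Sav1 had higher fitted amplitudes in DRF (0.21 ± 0.08, 0.11 ± 0.03 and 0.06 ± 0.03), which fell to 0.13, 0.05 and 0.01 without the 2 mice of DRF ZT16. Stk3 and Nf2 fell from 0.063 and 0.062 to 0.054 and 0.042, against 0.056 and 0.052 in NRF. Of the 10, only Mob1b was then still higher in DRF than in NRF (0.07). Without these mice 10.5% of all transcripts were called and the 4 calls held, with adjusted p-values of 0.0114 (Stk4), 0.0314 (Mob1a), 0.0101 (Yap1) and 0.0125 (Wwtr1).

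When time was taken as 7 separate levels in place of a cosine (limma), 5 members changed over the day in DRF: Sav1, Mob1b, Lats1, Nf2 and Wwtr1, against 32.7% of all transcripts. Without the 2 mice of DRF ZT16, 14.9% of all transcripts were called, and Sav1, Mob1b, Lats1 and Wwtr1 were not (adjusted p-values of 0.389, 0.0823, 0.321 and 0.415). Nf2 was still called (adjusted p-value 0.0166), and Yap1 passed as well (0.0309).

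The direct comparison of ZT20 with ZT8 called 4 of these 6 genes in NRF. Stk4 was 1.22 times as high at ZT20 (log2 difference 0.29 ± 0.05 SE), Mob1a 1.17 times (0.22 ± 0.07), Yap1 1.25 times (0.32 ± 0.08) and Wwtr1 1.28 times (0.36 ± 0.09). Their adjusted p-values were 0.000145, 0.0294, 0.00287 and 0.00376 (limma), that of Mob1a was 0.0771 to 0.0938 when any 1 replicate number was left out, and 9.3% of all transcripts were called higher at ZT20. These 4 calls were also made with the library trends in length, GC content and expression removed. In DRF 0 of the 10 were called, against 0.575% of all transcripts, and 0 had an unadjusted p-value under 0.05, against 8.92%. Wwtr1 had a log2 difference of 0.17 ± 0.09 there, and Yap1 one of -0.03 ± 0.08.

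Markers of some other cells moved over the same hours in NRF, where 19.9% of all transcripts were called between ZT20 and ZT8 in either direction. The 5 endothelial markers summed to 103 to 115 CPM at ZT8 and 125 to 148 CPM at ZT20 without overlap, and 2 of the 5 rose (Cldn5 by 0.38 and Flt1 by 0.36, log2). The 7 astrocyte markers summed to 2366 to 2519 CPM at ZT8 and 2567 to 2651 CPM at ZT20, also without overlap, with 2 of the 7 higher (Gja1 by 0.25 and Sox9 by 0.22) and 1 lower (Aldh1l1, -0.19). Some other markers went the other way. Of the 8 genes of the anterior hypothalamus, which summed to 659.5 to 880.6 CPM at ZT8 and 450 to 687.5 CPM at ZT20 with overlap, Vip was lower (log2 difference -0.55, adjusted p-value 0.0482), and of the 4 oligodendrocyte genes Mag was lower (-0.45, 0.0102). The 3 ependymal markers summed to 37.1 to 46.2 CPM at ZT8 and 39.9 to 50.5 CPM at ZT20 in NRF, with overlap, and 0 were called. In DRF the endothelial sum was 108 to 125 CPM at ZT8 and 111 to 134 CPM at ZT20, and the astrocyte sum 2483 to 2669 and 2486 to 3094 CPM. The part of these cells in the change of the Hippo genes was not tested.

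**Figure D3:**
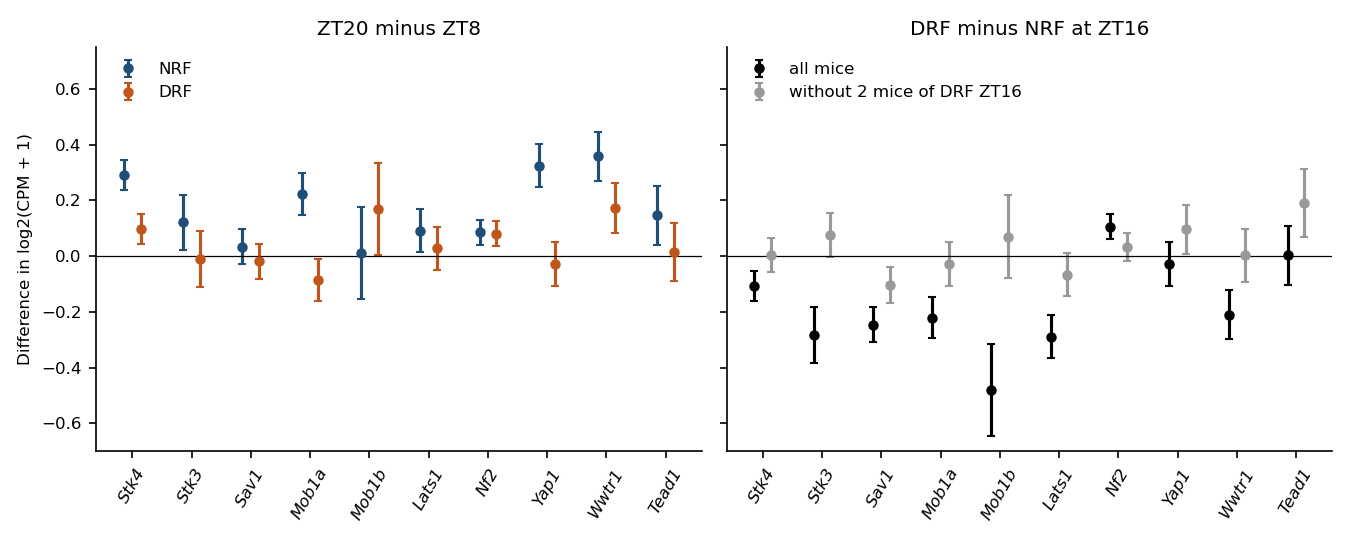
Differences in log2(CPM + 1) with bars of ± SE for each gene: ZT20 minus ZT8 in NRF (blue) and DRF (orange) on the left, and DRF minus NRF at ZT16 with all mice (black) and without mice 3 and 4 of DRF ZT16 (grey) on the right. Stk4, Mob1a, Yap1 and Wwtr1 lie at 0.22 to 0.36 on the left in NRF, and on the right the values of Stk3, Mob1a and Mob1b move from -0.28, -0.22 and -0.48 to near 0.

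The mean level over the 7 time points did not pass the test between DRF and NRF for any member, while 10.5% of all transcripts did (limma). At an unadjusted p-value under 0.05, 26.2% of all transcripts passed, with 3 members among them: Stk3, Sav1 and Nf2. Their log2 differences (DRF minus NRF) were -0.08 (95% interval -0.16 to -0.00), -0.06 (-0.11 to -0.01) and 0.04 (0.01 to 0.08), with adjusted p-values of 0.165, 0.11 and 0.109. For the effectors the intervals were -0.08 to 0.04 (Yap1), -0.08 to 0.06 (Wwtr1) and -0.03 to 0.13 (Tead1), so larger differences than these lay outside the interval.

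At single time points, members were called between DRF and NRF only at ZT16 of the 7, where Stk3, Sav1, Mob1a, Mob1b and Lats1 were lower in DRF. At that time 20.1% of all transcripts were called, and 13.5% were called lower in DRF. At the other time points, where 0 members were called, the shares of all transcripts were 4.51% (ZT0), 3.92% (ZT4), 0.175% (ZT8), 1.49% (ZT12), 1.12% (ZT20) and 0.275% (ZT24). For Mob1b, the DRF mice had 6.51, 7.19, 2.72 and 2.58 CPM and the NRF mice 5.74, 6.64, 7.04 and 6.54 CPM. Only mice 3 and 4 of DRF lay below the NRF mice. For Lats1, the DRF mice had 52.6, 48.0, 37.5 and 35.9 CPM and the NRF mice 46.2, 52.1, 54.7 and 58.6 CPM. For Stk3, the DRF mice had 24.2, 23.3, 15.5 and 12.8 CPM and the NRF mice 22.8, 22.9, 20.8 and 23.7 CPM. In both genes the low values again came from mice 3 and 4.

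Without these 2 mice none of the 5 calls at ZT16 remained, and 0.2% of all transcripts were called there. The adjusted p-values were 0.777 (Stk3), 0.566 (Sav1), 0.929 (Mob1a), 0.907 (Mob1b) and 0.807 (Lats1). Sav1 was the only 1 of the 5 whose DRF and NRF mice did not overlap with all mice included, at 21.0, 20.4, 18.2 and 15.5 CPM against 21.4, 23.8, 22.4 and 21.6 CPM. Without the 2 mice, 2 other differences passed: Stk4 was higher in DRF at ZT4 (log2 difference 0.17 ± 0.05, adjusted p-value 0.0302, against 6.48% of all transcripts) and Yap1 was lower in DRF at ZT20 (-0.27 ± 0.07, adjusted p-value 0.0353, against 2.24%). With all mice their adjusted p-values were 0.0677 and 0.0802. With the library trends in length, GC content and expression removed, again none of the 5 calls at ZT16 remained (adjusted p-values of 0.139 to 0.951). In their place Lats1 was higher in DRF at ZT0 (0.16, adjusted p-value 0.0307, against 8.87% of all transcripts), Stk4 at ZT4 (0.15, 0.0432, against 5.13%) and Mob1b at ZT20 (0.34, 0.0218, against 2.87%), and Yap1 was lower at ZT20 (-0.31, 0.0231).

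ZT0 and ZT24 are the same clock time in different mice. Nf2 was the only member called between them, in DRF, at 81.7, 85.0, 77.55 and 79.95 CPM at ZT0 and 88.6, 86.5, 93.9 and 98.9 CPM at ZT24, without overlap. The log2 difference was 0.18 ± 0.04 with an adjusted p-value of 0.048 (limma), and 0.5% of all transcripts were called. This call was lost with the replicate block (0.0537), a pseudocount of 0.1 (0.0504) and voom (0.0545), and without replicate 1 (0.144), 3 (0.333) or 4 (0.463). In NRF 2.14% were called and 0 of the 10 members, with 4 members (Stk4, Mob1b, Nf2 and Tead1) at an unadjusted p-value under 0.05 in limma, against 19.2% of all transcripts. Mob1b had 6.15, 5.75, 7.25 and 6.95 CPM at ZT0 and 7.46, 9.16, 10.04 and 9.09 CPM at ZT24 in NRF, without overlap, with an adjusted p-value of 0.167, which was 0.0368 without the 2 mice of DRF ZT16 and 0.00759 with sample weights.

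Per length of exon, the members spanned a wide range of levels. Nf2 was highest in every mouse, at 12.7 ± 0.55 CPM per kb in NRF and 13.1 ± 0.87 in DRF (SD, n = 28 each). It was followed by Stk4 at 8.05 ± 0.68 in NRF and by Lats1 at 7.06 ± 0.52, and Stk4 was above Lats1 in 52 of the 56 mice. Mob1a, Tead1, Sav1, Wwtr1 and Stk3 lay close together, at 4.81, 4.34, 4.22, 3.94 and 3.73 CPM per kb in NRF. Neighbours in this middle group changed order between mice, with the higher of each pair ahead in 38 to 44 of the 56 mice. Yap1 was below all of them in every mouse (2.13 ± 0.23), and Mob1b was lowest in every mouse (0.45 ± 0.08), far below its relative Mob1a.

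**Figure D4:**
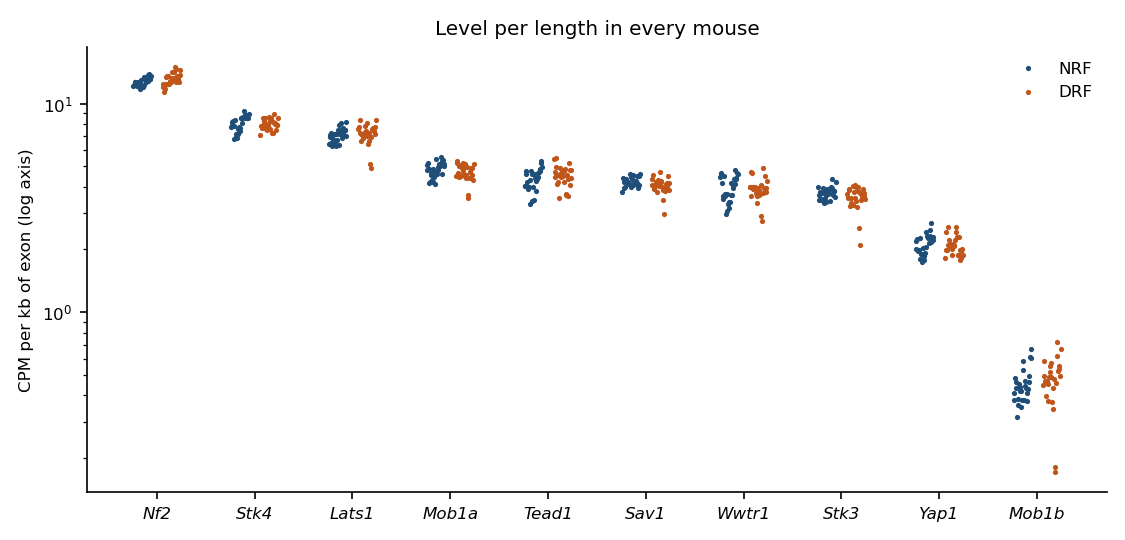
CPM per kb of exon (log axis) of each gene in every mouse, NRF in blue and DRF in orange, ordered by the mean over 56 mice. Nf2 lies above and Mob1b below all other genes in every mouse, and the 2 lowest Mob1b points (0.17 and 0.18) are mice 3 and 4 of DRF ZT16.

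With all mice, the SD between mice of the same group was larger in DRF for 10 of the 10 genes. The ratio of the SD in DRF to that in NRF was 1.07 (Stk4) to 2.13 (Stk3) with a median of 1.38, against a median of 1.27 over all transcripts. Without the 2 mice of DRF ZT16 it was larger in DRF for 6 of the 10, the ratio ran from 0.862 (Stk4) to 1.62 (Nf2), with 1.08 for Stk3, and the median was 1.1 against 1.12 over all transcripts. On the log2 scale, the members had a median SD of 0.09 in NRF and 0.13 in DRF, or 0.09 in DRF without these mice.

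Over the 14 means of regimen and time, the closest pair of members was Mob1b and Lats1 (Pearson r = 0.896, or 0.79 without the 2 mice of DRF ZT16), followed by Stk3 and Mob1a (0.841, or 0.657). The likeness of Sav1 and Stk3 fell from 0.824 to 0.141 without these mice. Stk4 was most like Yap1 (0.719, or 0.779), and Wwtr1 was most like Tead1 (0.7, or 0.656). Among 13890 genes, those most like each member lay at 0.891 to 0.978. They were Srek1 and 9330159F19Rik for Stk4, Nxf1 and Zfp773 for Yap1, Ppp2r5a and Bmpr1b for Wwtr1, and Smad5 and Gzf1 for Tead1. For the upstream members they were Trim33 and Nup155 (Lats1), Cep70 and Nhs (Mob1b), Arhgap12 and Evi5 (Mob1a), Gm45871 and Zfp120 (Stk3), Bivm and Zfp940 (Sav1), and Arrb1 and Mllt6 (Nf2). Without the 2 mice of DRF ZT16 the same pairs lay at 0.695 (Bivm with Sav1) to 0.965 (Srek1 with Stk4), and Gm45871 with Stk3 fell from 0.94 to 0.806. All of these correlations are descriptions over 14 points that share their libraries.

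The rest of the pathway was read from a list of 62 other Hippo genes in the table. Of these, 29 were rhythmic in NRF, 20 of them with a peak between ZT18 and ZT24, and 0 were rhythmic in DRF, 0 also at an unadjusted p-value under 0.05 and 0 by the limma cosine. Of all transcripts, 30.7% were called in NRF, 50.8% of those with a peak in the same hours, and 1.02% in DRF. Without the 4 genes that the study names for their rhythm, the count was 25 of 58. The rhythm differed between regimens in 7 of the 62, close to the 11% of all transcripts, each with a lower amplitude in DRF: Wwc1, Rassf4, Fat1, Map4k1, Tjp1, Stk38 and Map4k5. Wwc1 (KIBRA), which works with NF2 upstream of the kinases, had an amplitude of 0.17 ± 0.03 in NRF and 0.06 ± 0.03 in DRF (adjusted p-value for the difference 0.00116, limma). Fat1, an atypical cadherin, had 0.16 ± 0.04 and 0.07 ± 0.04 (0.00952). Map4k1, a kinase that can act on LATS, peaked at ZT8.79 in NRF, away from the other 6, which lay between ZT18.2 and ZT23.0. Map4k5 was not called without the 2 mice of DRF ZT16 (adjusted p-value 0.0915), and with Dlg1 in its place the count was again 7.

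Among the genes the study names, Lats2, the relative of Lats1, was rhythmic in NRF (adjusted p-value 6.43e-04, amplitude 0.19 ± 0.05, peak at ZT18.2), and its difference in rhythm did not pass the test (adjusted p-value 0.441, limma). Tjp1, a tight junction protein, had 0.15 ± 0.03 in NRF and 0.02 ± 0.03 in DRF (0.028). Nek8 had 0.16 ± 0.03 in NRF, with a peak at ZT2.68, and the difference had an adjusted p-value of 0.0533. These genes were chosen by the study on these mice, so their rhythm in NRF is not independent evidence. Amot, which binds YAP1 (0.21 ± 0.03 in NRF, peak at ZT20.1), Fbxw11, part of a ubiquitin ligase that acts on YAP1 and TAZ (0.07 ± 0.01, ZT20.1), and Dlg1, a polarity protein (0.08 ± 0.02, ZT21.4), were rhythmic in NRF without a called difference between regimens. Without the 2 mice of DRF ZT16, however, the difference was called for Dlg1 (adjusted p-value 0.0625 with and 0.00498 without them, limma). Of the 6 other nuclear partners, among them Tead2 and Tead3, 0 were rhythmic in NRF by the combined test (30.7% of all transcripts) or the limma cosine (27.9%). In the combined test 1 (Vgll4) had an unadjusted p-value under 0.05, against 37.1% of all transcripts. Apart from Vgll4 (16.5 CPM), these partners were scarce, with means over all mice of 0.393 to 4.81 CPM.

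**Figure D5:**
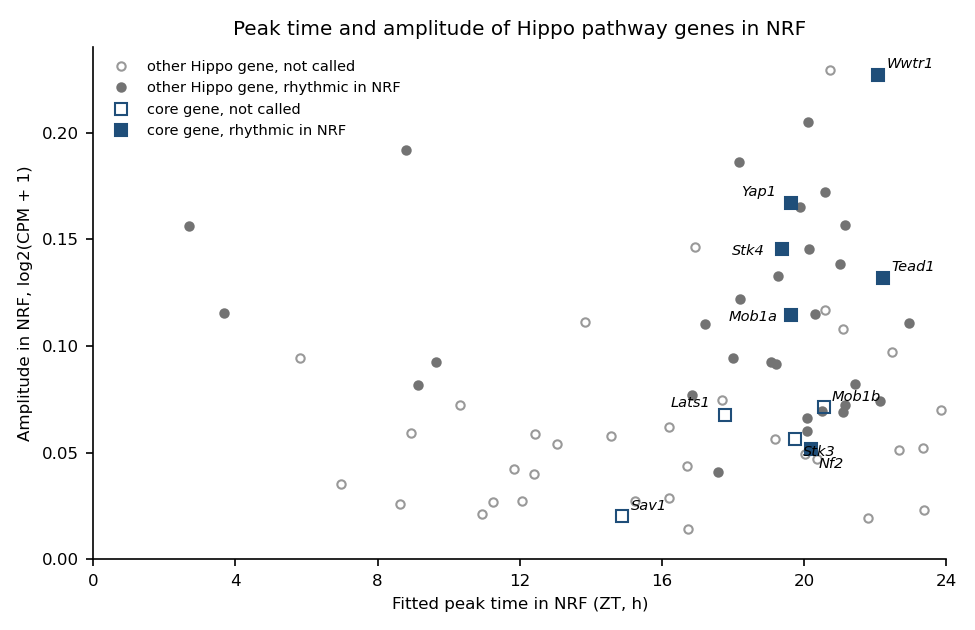
Fitted peak time in NRF (ZT in hours) against amplitude in NRF (log2(CPM + 1)) for the 10 core genes (blue squares) and 62 other Hippo genes (grey circles), filled where the gene was rhythmic in NRF. The 6 core genes called lie between ZT19.4 and ZT22.2, and 20 of the 29 other genes called lie between ZT18 and ZT24.

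Transcripts known to be raised by YAP1 and TAZ were read from a list of 22 genes, of which 21 could be tested and 3 (Amotl2, Lats2 and Ptpn14) are also on the list above. In NRF 9 of the 21 were rhythmic, against 30.7% of all transcripts. In DRF 0 were (1.02% of all transcripts), by the combined test or the limma cosine, and 1 (Axl) had an unadjusted p-value under 0.05. The rhythm differed between regimens in 0 of the 21, against 11% of all transcripts, with 3 (Asap1, Myof and Nuak2) at an unadjusted p-value under 0.05 in limma. The mean level differed for 10.5% of all transcripts. It was higher in DRF for 1 target, Arhgef17 (log2 difference 0.08, adjusted p-value 0.027), which was not called without the 2 mice of DRF ZT16 (0.0606), and lower for 0. Ccn1 was not called in NRF (adjusted p-value 0.858, 2.04 to 4.98 CPM). Ccn2 was called (0.0264), with a peak at ZT15.7, and its NRF values ran from 1.94 to 21.6 CPM, so single mice were far above the rest. Ankrd1 lay between 0 and 0.456 CPM in NRF and was not tested. Of the 9 called, 4 peaked between ZT18 and ZT24, the hours of the peaks of Yap1 and Wwtr1, against 50.8% of all transcripts called in NRF.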

How the data were processed

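RNA-seq of the anterior hypothalamus from 56 female mice was analysed. By the study's methods, the authors mapped reads with HISAT2 to GRCm38.p6, aligned them with Bowtie2 to the coding genes, quantified them with RSEM, normalized counts by the trimmed mean of M-values in edgeR and converted them to a value named TPM. The deposited values are a compressed score: they follow the steps of log2(CPM + 1) divided by exon length and rescaled per mouse (median relative deviation at most 2.25e-08). CPM was recovered from these steps, and 15184 genes, all 10 members among them, gave whole reads within 0.05 of a read.

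Rhythm was tested on the deposited score in the 16245 transcripts that reached 1 in 80% or more of the mice (JTK_CYCLE and Lomb-Scargle, 20 to 28 h, combined by Fisher's method, an own implementation checked on simulated data). Differences were tested with limma 3.58.1 in R 4.3.3 on log2(CPM + 1) of 16000 transcripts, all groups in a single fit and with no block, using a 24-h cosine or the 14 groups. All p-values were adjusted by the Benjamini-Hochberg method over all transcripts, with a threshold of 0.05. Of the table's genes, 108 had no symbol.

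The members and gene lists were chosen with earlier results of these data known. Named genes were the 10 members, Lats2, Wwc1, Nek8 and Tjp1, up to 10 other Hippo genes (those whose rhythm differed first, by adjusted p-value, then those rhythmic in NRF), Ccn1, Ccn2, Ankrd1 and up to 5 other targets whose rhythm differed, and the nearest genes of each member among those with a mean of at least 1 CPM. Alternatives covered the rhythm test, deposited values, pseudocount, filter, library trends in length, GC content and expression, sample weights, a replicate block, and leaving out each replicate number, ZT16 or ZT24. Leaving out 2 mice of DRF ZT16 and the voom fit were chosen after seeing the data.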

Additional observations from a re-analysis of the deposited data

Results flagged for a closer look

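The rhythm of 4 members differed between DRF and NRF by the limma test of the cosine terms, with adjusted p-values of 0.00846 (Stk4), 0.0191 (Mob1a), 0.0112 (Yap1) and 0.0384 (Wwtr1). The same test called 11% of all transcripts. In 140 groups of 4 mice, 3 had a mouse far from the other 3 by Dixon's criterion, which chance alone passes in about 1 of 20 groups. Sav1 was at 24.7 CPM in mouse 2 of DRF ZT12, against 22.1 to 22.5 CPM in the others. Nf2 was at 88.8 CPM in mouse 1 of NRF ZT12, against 81.6 to 82.7 CPM. Wwtr1 was at 22.3 CPM in mouse 1 of DRF ZT4, against 18.6 to 19.0 CPM.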

How the results depend on the processing

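Of the 10 members, 6 were rhythmic in NRF, and 0 with the Lomb-Scargle periodogram alone, which called 0 transcripts of all. Leaving out each replicate number gave 4 to 6. In DRF the count was 0, and 5 with time as a factor in limma. For the difference in rhythm, 4 members were called, 2 without ZT24 and 1 to 3 without a replicate number. For the mean level, 0 were called, and 1 (Tead1) with sample weights. Over the 7 time points, 5 differences between DRF and NRF were called, 2 with sample weights, 2 without mice 3 and 4 of DRF ZT16, 4 with library trends removed, of which 0 at ZT16, and 0 to 7 without a replicate number. For ZT20 minus ZT8, 4 were called in NRF and 3 whenever 1 replicate number was left out. For ZT24 minus ZT0 in NRF the count was 0, with 1 on the deposited values, 4 with sample weights and 1 without the 2 mice. In DRF it was 1, and 0 with a pseudocount of 0.1, with the replicate block, with voom and in the lowest of the fits without a replicate number (0 to 1). Among the called differences, the sign turned at ZT16 for Stk3 with sample weights (adjusted p-value 0.854, limma) and without the 2 mice (0.777), and for Mob1b without the 2 mice (0.907). It also turned for the amplitude difference of Mob1a without replicate 2 (0.0293, in a range of 0.0293 to 0.144 over the fits that each leave out a replicate number). Of the members not called at ZT16, the log2 difference there turned without the 2 mice for Stk4 (-0.1084 to 0.0043), Yap1 (-0.0287 to 0.0966) and Wwtr1 (-0.2099 to 0.003). The causes were not tested. The replicate numbers do not pair the mice: deviations of same-numbered mice correlated at a median of 0.0067, with 104 of 364 pairs above 0.1. The replicate block left 4 members with a difference in rhythm and 5 differences by time point. The groups held 4 mice each, with a median SD between mice of 0.09 in NRF and 0.13 in DRF (log2), and the smallest change that this design can detect was not computed.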

Other observations

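Map4k3, a kinase on the list of other Hippo genes, had a mean of 23390 CPM over the 56 mice, while the other genes of the list's upstream group lay at 0.583 to 242 CPM. Its CPM was recovered from the deposited score with an exon length of 9911 bases, and a wrong length would change it steeply. Whether this length and level hold for Map4k3 was not tested. On the deposited score, which needs no recovered length, Map4k3 was rhythmic in NRF by the combined test (adjusted p-value 0.00283).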
